A study of Mus musculus with 8 samples.

Results

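The cytosolic ribosomal protein genes were followed across 8 RNA sequencing libraries of mouse HSPCs, the stem and progenitor cells from which blood is formed. Members were the rows of the count table whose symbol began with Rps, Rpl or Rplp, without the Rps6k kinases, the pseudogene names and the numbered paralogs Rpl7l1 and Rpl22l1, and with a mean of at least 5 CPM (counts scaled to a common library total). This gave 77 of 24421 genes. They were 30 genes of the small subunit, 40 of the large subunit, the 3 genes of the P stalk, and 4 others that the names take in, namely Rps27l, Rpl36al, Rpl37rt and Rps19bp1. Of these 4, Rps27l, Rpl36al and Rpl37rt are named as copies of ribosomal protein genes, and Rps19bp1 encodes a protein that binds Rps19 and is no ribosomal protein. Just inside the minimum lay Rpl37rt with a mean of 5.72 CPM and just outside it lay Rpl34 with 4.33 and Rps4l with 4.11 CPM.

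HSPCs were harvested from primary recipients of a transplant, and the 4 groups held 2 libraries each. WT_EV cells were wild type and carried an empty vector. The dKO cells, for which the title of the series names β-catenin (Ctnnb1) and Hoxa9, carried an empty vector (dKO_EV), an enzymatically dead mutant of PRMT1 (dKO_MUT) or wild-type PRMT1 (dKO_PRMT1). PRMT1 is a methyltransferase that places methyl groups on arginine residues. The labels give no age, strain, vector promoter or Cre driver. In the genotype label of dKO_MUT replicate 2 the mutant is called PRMT2, while the title places that library with the PRMT1 mutant, and the source label calls all 8 libraries dKO, the wild-type ones included. The labels do not say whether the libraries of a group came from separate mice, so the p-values measure the spread between these libraries only.

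Each ribosome is built from a small subunit, which reads the messenger RNA, and a large subunit, which joins amino acids, and most of its proteins are needed in equal amounts. In the blood system, loss of a single copy of certain ribosomal protein genes causes Diamond-Blackfan anaemia, and RPS14 lies in the region lost in the 5q- syndrome. Most of these genes begin transcription at a cytosine followed by a run of pyrimidines, the terminal oligopyrimidine (TOP) motif, through which mTORC1 signalling and LARP1 control their translation.

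Library totals ran from 15531344 to 22329749 counts, with dKO_EV replicate 1 the smallest and dKO_EV replicate 2 the largest. Prmt1 stood at 188 and 192 CPM in WT_EV, 190.0 and 194 in dKO_EV, 1740 and 1760 in dKO_MUT and 981 and 976 in dKO_PRMT1, highest with the mutant. Hoxa9 stood at 17.2 to 18.2 CPM in WT_EV and at 1.87 to 5.79 in the dKO libraries, and Ctnnb1 at 444 to 455 against 360 to 391 CPM; the labels do not say which exons were deleted. Xist was read at 121 to 159 CPM in WT_EV and at 0 counts in the 6 dKO libraries, and Ddx3y at 0 counts and at 58.2 to 68.5 CPM, so genotype and the sex of the cells cannot be told apart in any comparison with WT_EV. All 11 HSPC markers were above 1 CPM in every library. They summed to 2084 to 2131 CPM in WT_EV, 2095 to 2110 in dKO_EV, 2027 to 2045 in dKO_MUT and 1923 to 1977 in dKO_PRMT1. These sums held opposed changes. Against WT_EV the fold change was below 0 for 5 of the 11 in dKO_EV, 6 in dKO_MUT and 6 in dKO_PRMT1, and above 0 for 6, 5 and 5. The median log2 fold changes were 0.047, -0.001 and -0.323. The 15 neutrophil markers summed to 18250 to 18270 CPM in WT_EV, 25350 to 26430 in dKO_EV, 32890 to 33540 in dKO_MUT and 32660 to 33000 in dKO_PRMT1, and all were above 1 CPM in every library. The 13 monocyte and macrophage markers were all above 1 CPM in every library. They summed to 9674 to 9808 CPM in WT_EV, 8582 to 9507 in dKO_EV, 7327 to 7765 in dKO_MUT and 7221 to 7222 in dKO_PRMT1. These sums held opposed changes. The fold change against WT_EV was below 0 for 11 markers in dKO_EV, 10 in dKO_MUT and 11 in dKO_PRMT1, and above 0 for 2, 3 and 2. Lyz2 stood at 2580 and 2360 CPM in WT_EV, 3030 and 3600 in dKO_EV, 4130 and 3670 in dKO_MUT and 3410 and 3500 in dKO_PRMT1. The 10 mast cell and basophil markers, 8 of them above 1 CPM in every library, summed to 1554 to 1600, 889 to 895, 1008 to 1031 and 577 to 586 CPM in the same order. Erythroid markers summed to 299 to 417 CPM with all 6 globin rows at 0 counts, and Tfrc alone stood at 267 to 350 CPM. Over the 7 erythroid markers tested, the median log2 fold change against WT_EV was -0.653 in dKO_EV, -1.149 in dKO_MUT and -1.601 in dKO_PRMT1. Megakaryocyte markers summed to 194.6 to 361 CPM, B cell markers to 8.73 to 13.9 CPM, and T and NK cell markers to 76.8 to 114.6 CPM with Cd3e at 0 counts. The part of the cell mixture in the results on ribosomal protein genes was not tested, and in bulk RNA fewer cells of a type and less RNA per cell cannot be told apart.

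The start sites of the members are shown first because a pyrimidine run at the first transcribed base is the feature these genes are best known to share. RefSeq promoter entries (GRCm38.p6) were matched by symbol for 58 of the 77 members, in 68 windows of 30 bases, 15 on each side of the annotated start. A run of at least 8 bases made only of C and T lay in 24 of the 68 windows (35.3%), against 12% of 32783 windows of other genes, and the median longest run was 5.5 against 4 bases. The run could lie anywhere in the window, before or after the start, so these shares do not count runs at the first transcribed base. The windows below read 5′ to 3′ on the gene's strand, with the longest run of C and T in capitals and the annotated start after the first 15 bases. The first 6 carry a run of at least 8 bases and the last 3 belong to members whose levels are described below and whose run was shorter.
Rpl35 (chr2:39005117-39005146, minus strand): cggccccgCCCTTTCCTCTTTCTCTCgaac
Rps10 (chr17:27635230-27635259, minus strand): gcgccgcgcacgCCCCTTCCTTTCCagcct
Rpl38 (chr11:114668565-114668594, plus strand): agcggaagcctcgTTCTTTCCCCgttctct
Rplp2 (chr7:141447636-141447665, plus strand): tgcgtcagcgTCTTCCTTTCgccgccggac
Rps6 (chr4:86857353-86857382, minus strand): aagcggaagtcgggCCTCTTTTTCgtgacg
Rpl13a (chr7:45128731-45128760, minus strand): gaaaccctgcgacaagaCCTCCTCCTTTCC
Rpsa (chr9:120127751-120127780, plus strand): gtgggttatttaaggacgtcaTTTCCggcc
Rpl36a (chrX:134585639-134585668, plus strand): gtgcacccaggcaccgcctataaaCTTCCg
Rpl37a (chr1:72711245-72711274, plus strand): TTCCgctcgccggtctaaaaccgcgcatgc

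Within 300 bases (250 before the start and 50 after it), the letters CCGGAAGT, an ETS-type motif, were found on either strand in 16.2% of the 68 member windows and in 3.86% of the windows of other genes. The E-box letters CACGTG were found in 8.82% and 7.15%. A match describes letters and is not evidence of binding. In dKO_EV against WT_EV the median log2 fold change was -0.16 over 24 genes with such a run and -0.17 over 34 with a shorter one, and in dKO_MUT against dKO_EV the medians were 0.13 and 0.13.

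Together the 77 genes took 7.32% and 7.30% of all counts in WT_EV, 6.56% and 6.74% in dKO_EV, 7.13% and 7.31% in dKO_MUT, and 6.70% and 6.87% in dKO_PRMT1. Both WT_EV and both dKO_MUT libraries lay above both libraries of dKO_EV and of dKO_PRMT1, while WT_EV and dKO_MUT overlapped, as did dKO_EV and dKO_PRMT1. The group means were 7.31% ± 0.0128 (SD, n = 2), 6.65% ± 0.123, 7.22% ± 0.127 and 6.79% ± 0.118. With 2 libraries a group, an exact permutation test cannot pass 0.05, and none was run. Counts in large subunit genes were 1.22 times those in small subunit genes in both dKO_EV libraries and 1.20 times in the other 6. Rplp0, which anchors the P stalk, and Rpsa, a protein of the small subunit also known as a laminin receptor precursor, were the only members among the 20 genes of highest count.

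**Figure D1:**
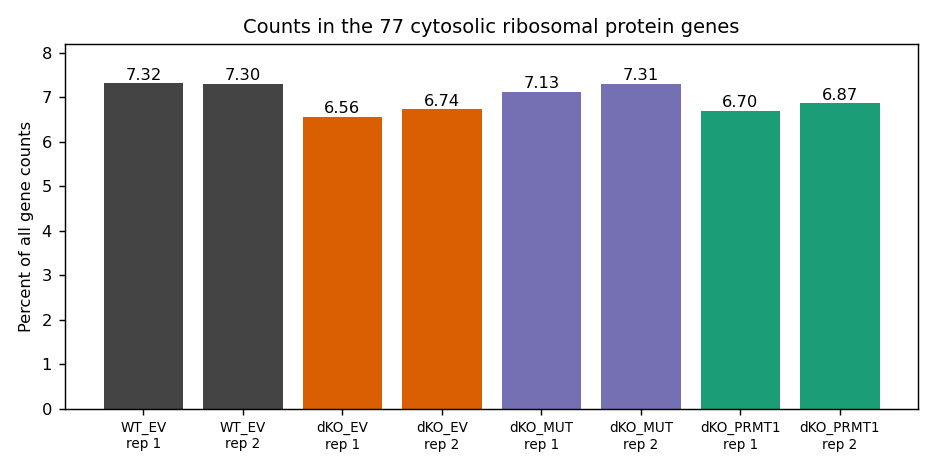
Percent of all gene counts that fall in the 77 ribosomal protein genes, 1 bar for each library, coloured by group. The bars of WT_EV and dKO_MUT stand at 7.13% to 7.32% and those of dKO_EV and dKO_PRMT1 at 6.56% to 6.87%.

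Most genes showed the same order. In WT_EV, 73 of the 77 genes stood above their own mean over the 8 libraries in each replicate, against 1 and 5 in dKO_EV, 60 and 75 in dKO_MUT and 2 and 14 in dKO_PRMT1. The group mean was lowest in dKO_EV for 64 genes and in dKO_PRMT1 for 13, and highest in WT_EV for 56, in dKO_MUT for 20 and in dKO_EV for 1, Rps19bp1. In all 77 genes the mean of dKO_MUT exceeded that of dKO_PRMT1. For 21 genes each of the 6 other libraries lay above both dKO_EV libraries. These include Rpsa, Rps29, Rps21, Rps19, Rpl37a, Rpl36a, Rpl39 and Rplp2. The share of all genes tested that show these orders was not computed. Both dKO_PRMT1 libraries alone lay above both dKO_EV libraries in 21 of the 77 members, against 25.8% of all genes tested. The genes are read from the same libraries and are not independent replicates.

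**Figure D2:**
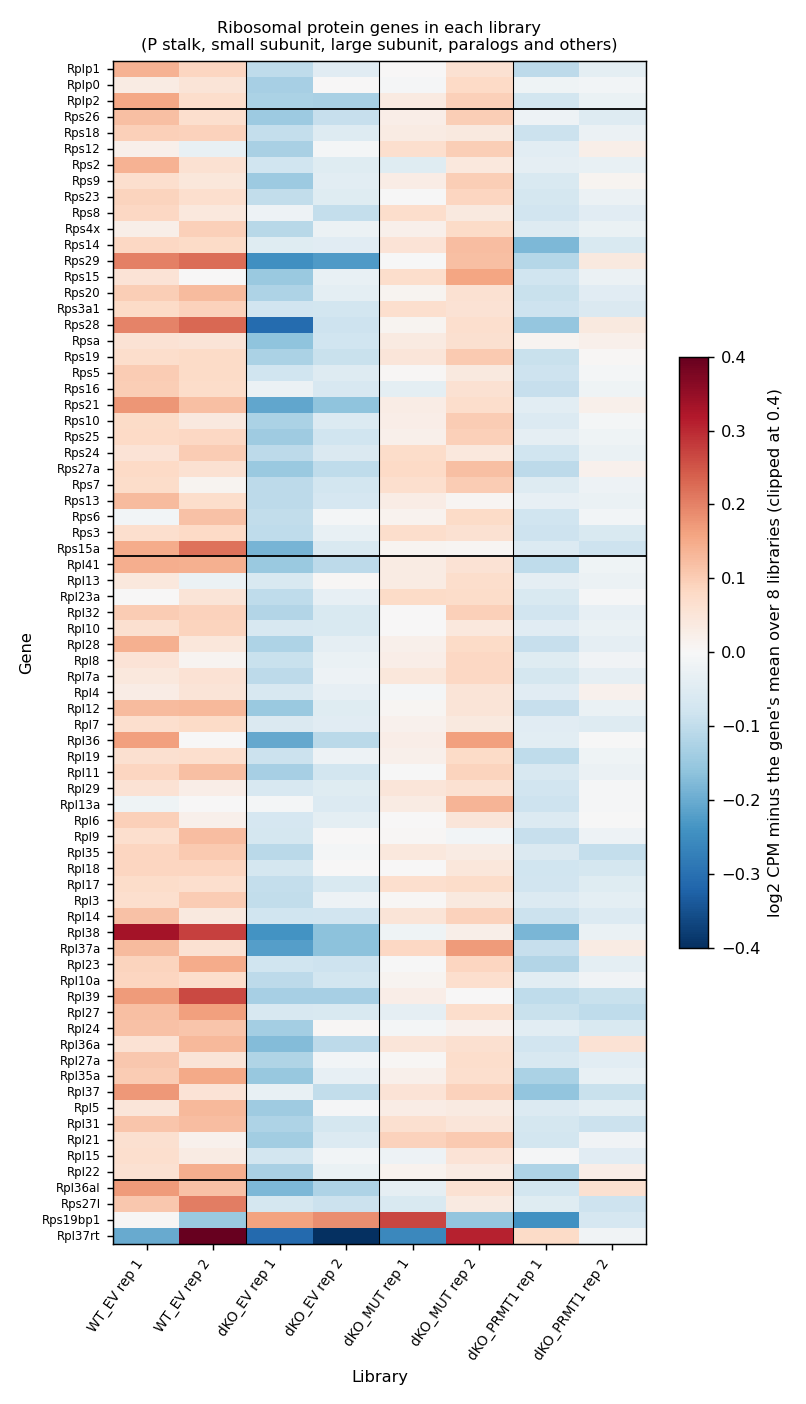
Rows are ribosomal protein genes, without a few not reported by name, and each column is a library; colour gives the log2 CPM minus the gene's mean over the 8 libraries, clipped at 0.4 in either direction. Rows are split into P stalk, small subunit, large subunit and other genes; WT_EV is red in nearly every row, dKO_EV blue, dKO_MUT pale to red and dKO_PRMT1 mostly blue.

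Loss of β-catenin and Hoxa9 was assessed by comparing dKO_EV with WT_EV. Of the 77 genes, 67 fell and 0 rose by edgeR's quasi-likelihood test (adjusted p under 0.05), where 7.00% of the 12744 genes tested were called lower and 8.44% higher. At an unadjusted p under 0.05, 73 were lower and 0 higher, beside 1627 lower and 1786 higher of the 12744 genes tested. DESeq2 and limma voom called 67 and 69 members lower and 0 higher. The share of all genes called by these other methods is not given here for any comparison. Changes are given as log2 fold change ± SE. The median log2 fold change was -0.16, or -10.5%, with quartiles of -0.21 and -0.13, while the median over all genes tested was -0.001. Both dKO_EV libraries lay below both WT_EV libraries in 72 of the 77, against 26.0% of all genes tested. Among 501 other genes at 300 CPM or more, the median was -0.036.

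In the small subunit 28 of 30 genes fell. Rps29 (chr12:69157722-69159186), a short zinc-binding protein, was read at 659 and 669 CPM in WT_EV, 483 and 489.6 in dKO_EV, 572 and 623 in dKO_MUT and 529 and 589 in dKO_PRMT1. Its dKO_EV libraries were the lowest of all and its WT_EV libraries the highest, with no overlap, and the log2 fold change in dKO_EV against WT_EV was -0.45 ± 0.043 (adjusted p = 5.7e-10). Rps21 (chr2:180257379-180258444) was read at 551 and 529 CPM in WT_EV, 422 and 436 in dKO_EV, 497 and 511 in dKO_MUT and 474 and 494 in dKO_PRMT1, again with WT_EV highest and dKO_EV lowest, and changed by -0.33 ± 0.039 (adjusted p = 5.5e-08). Rps28, another of the shortest small subunit genes, stood at 515 and 526 CPM in WT_EV, 363 and 424 in dKO_EV, 452 and 470.2 in dKO_MUT and 403 and 461 in dKO_PRMT1; its dKO_EV replicate 1 was the lowest library, and the fold change was -0.40 ± 0.078 (adjusted p = 0.0069). Rps15a was read at 604 and 634 CPM in WT_EV and 479.7 and 522 in dKO_EV, a change of -0.30 ± 0.04 (adjusted p = 4.9e-07), although its row is the longest of the members at 5134 exonic bases. Rpsa (chr9:120127766-120132369) fell from 2644 and 2632 to 2275 and 2406 CPM, or -0.17 ± 0.03 (adjusted p = 6.6e-05). Rps6, the target of the S6 kinases, stood at 986 and 1078 CPM in WT_EV and 928 and 987 in dKO_EV and did not pass the test (-0.11 ± 0.039, adjusted p = 0.061). The other small subunit gene that did not pass was Rps12, at -0.063 ± 0.037 (adjusted p = 0.29).

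In the large subunit 34 of 40 genes fell. The largest called change was in Rpl38 (chr11:114668543-114672331), a protein on the ribosome surface whose loss in mouse embryos alters the translation of Hox messenger RNAs. Its levels were 497 and 478 CPM in WT_EV, 335 and 353 in dKO_EV, 390.3 and 402 in dKO_MUT and 348 and 388 in dKO_PRMT1. Every dKO library lay below both WT_EV libraries, and the log2 fold change in dKO_EV was -0.50 ± 0.045 (adjusted p = 8.7e-11). Rpl39 (chrX:37082520-37085184), which lines the exit tunnel of the nascent chain, was read at 353 and 377 CPM in WT_EV, 286 and 286 in dKO_EV, 319.6 and 314 in dKO_MUT and 292 and 295 in dKO_PRMT1, with all 6 dKO libraries below WT_EV. It changed by -0.35 ± 0.043 (adjusted p = 1.2e-07) in dKO_EV, and Rpl41, the shortest of the ribosomal proteins, by -0.27 ± 0.035 (adjusted p = 4.4e-07) from 958 and 957 to 782 and 805 CPM. Rpl13a (chr7:45125563-45128745), which also acts outside the ribosome in silencing inflammatory transcripts of myeloid cells, stood at 1208 and 1224 CPM in WT_EV, 1216 and 1178 in dKO_EV, 1251 and 1345 in dKO_MUT and 1154 and 1219 in dKO_PRMT1. Its WT_EV and dKO_EV libraries overlapped, at -0.023 ± 0.036 (adjusted p = 0.75). The other 5 large subunit genes that did not pass, Rpl13, Rpl23a, Rpl8, Rpl29 and Rpl15, had fold changes of -0.036 to -0.10. The members on the X chromosome, Rps4x, Rpl10, Rpl36a and Rpl39, changed by -0.13, -0.14, -0.23 and -0.35.

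All 3 genes of the P stalk, the arm of the large subunit that recruits translation factors, fell in dKO_EV. Rplp2 was read at 768 and 724 CPM in WT_EV, 632 and 631 in dKO_EV, 708 and 737 in dKO_MUT and 655 and 678 in dKO_PRMT1, with both dKO_EV libraries below the other 6, and changed by -0.24 ± 0.037 (adjusted p = 9.1e-06). Rplp1 changed by -0.19 ± 0.035 (adjusted p = 0.00015) and Rplp0 by -0.11 ± 0.034 (adjusted p = 0.029). Of the 4 other genes, Rps27l (chr9:66946118-66949509), a p53-induced paralog of Rps27, was read at 157 and 168 CPM in WT_EV, 139 and 137 in dKO_EV, 139.8 and 149 in dKO_MUT and 141 and 138 in dKO_PRMT1. It fell by 0.23 ± 0.056 on the log2 scale (adjusted p = 0.0026), with both dKO_EV libraries below both WT_EV libraries. Rpl36al fell from 225 and 217 to 177 and 184 CPM (-0.29 ± 0.053, adjusted p = 8.2e-05). Rpl37rt, thinly covered with a mean of 5.72 CPM, and Rps19bp1, at 17.7 to 25.1 CPM, did not pass, at -0.75 ± 0.29 and 0.24 ± 0.14.

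**Figure D3:**
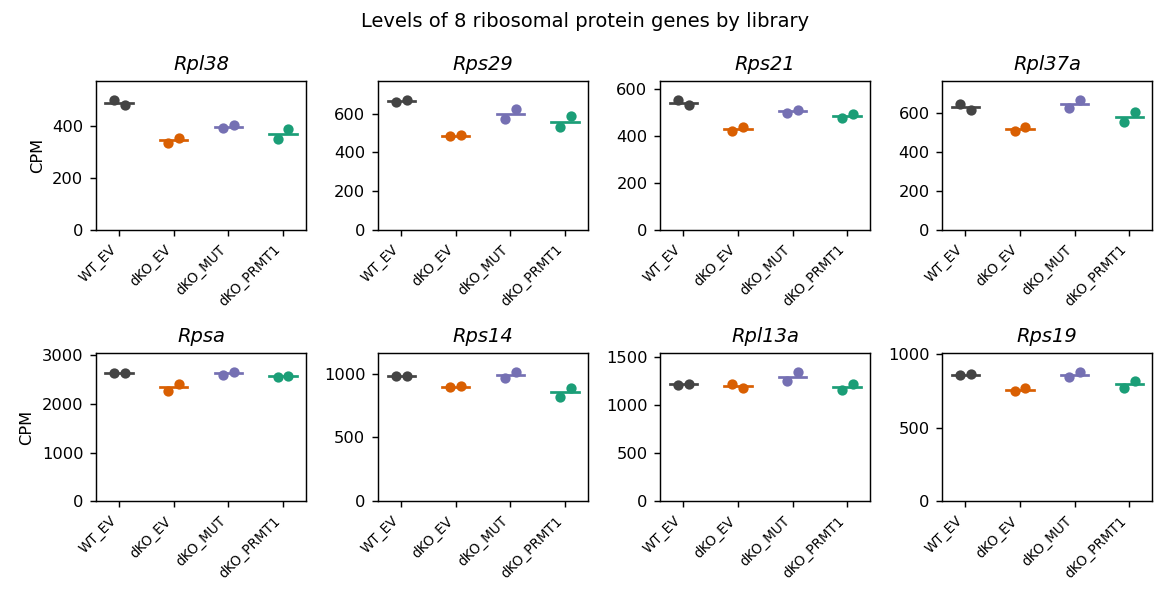
CPM of 8 ribosomal protein genes in each library (points) with the group mean (line), on axes that start at 0. In Rpl38, Rps29 and Rps21 the WT_EV points lie above all others and the dKO_EV points lowest or among the lowest; in Rps14 and Rpl13a the lowest point belongs to dKO_PRMT1.

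The effect of the mutant PRMT1 was read by comparing dKO_MUT with dKO_EV; the dKO_EV libraries are shared with the comparison above, so libraries low there give higher values here. Of the 77 genes, 52 rose and 0 fell, where 4.24% of all genes tested were called higher and 7.08% lower. At an unadjusted p under 0.05, 68 were higher and 0 lower, beside 1348 higher and 1655 lower of the 12744 genes tested. DESeq2 and voom called 53 and 54 members higher and 0 lower. The median log2 fold change was 0.13, or 9.48%, with quartiles of 0.10 and 0.16, against 0.002 over all genes tested. Both dKO_MUT libraries lay above both dKO_EV libraries for 70 genes, against 23.9% of all genes. The count of 52 fell to 24 without dKO_MUT replicate 2 and to 30 without dKO_EV replicate 1, and the median stayed between 0.11 and 0.17 whichever library was left out.

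By subunit, 24 of 30 small subunit genes, 24 of 40 large subunit genes and all 3 stalk genes rose with the mutant. Rpl37a (chr1:72711260-72713813), a zinc-binding protein of the large subunit, was read at 644 and 615 CPM in WT_EV, 506 and 526 in dKO_EV, 624 and 663 in dKO_MUT and 552 and 604 in dKO_PRMT1. Both dKO_MUT libraries lay within or above the WT_EV range and well above dKO_EV, and the log2 fold change was 0.32 ± 0.042 (adjusted p = 3.8e-07). Rps29 rose by 0.30 ± 0.043 (adjusted p = 3.4e-06) and Rps21 by 0.23 ± 0.039 (adjusted p = 3.8e-05); in both, dKO_MUT stayed below WT_EV and above dKO_EV. Rps27a, made as a fusion with ubiquitin, stood at 905 and 893 CPM in WT_EV, 772 and 797 in dKO_EV, 905 and 931 in dKO_MUT and 796 and 867 in dKO_PRMT1, with dKO_MUT at the WT_EV level or above. It rose by 0.23 ± 0.037 (adjusted p = 2.9e-05), Rpsa by 0.17 ± 0.03 (adjusted p = 0.00012) and Rpl21 by 0.19 ± 0.036 (adjusted p = 0.00017). Rpl38 rose by 0.20 ± 0.045 (adjusted p = 0.0016) but its dKO_MUT libraries remained below both WT_EV libraries. Rpl36al rose by 0.16 ± 0.053 (adjusted p = 0.04), and the other 3 copies and partners, Rps27l, Rpl37rt and Rps19bp1, did not pass.

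Wild-type PRMT1 was assessed by comparing dKO_PRMT1 with the same dKO_EV libraries, and few ribosomal protein genes differed. Only 5 of 77 rose, namely Rps29, Rps21, Rpsa, Rpl37a and Rpl36a, or 4 by DESeq2 and 4 by voom, a share close to the 5.96% of all genes tested that were called higher. None fell (8.67% of all genes were called lower), and DESeq2 and voom called 0 lower. At an unadjusted p under 0.05, 13 were higher and 1, Rps19bp1, was lower, beside 1549 higher and 1768 lower of the 12744 genes tested. The median log2 fold change was 0.027, or 1.86%, and both dKO_PRMT1 libraries lay above both dKO_EV libraries in 21 genes, against 25.8% of all genes. Rpsa rose by 0.14 ± 0.03 (adjusted p = 0.0015), with all 4 libraries of dKO_MUT and dKO_PRMT1 above both of dKO_EV, and it was the single call kept under each of the 16 settings tried. Rps29 rose by 0.20 ± 0.043 (adjusted p = 0.00091) and Rps21 by 0.17 ± 0.039 (adjusted p = 0.0015). Rpl37a rose by 0.16 ± 0.042 (adjusted p = 0.0051) and Rpl36a by 0.13 ± 0.045 (adjusted p = 0.043), from 315 and 331 to 337 and 370.4 CPM. Without dKO_PRMT1 replicate 2 only Rpsa passed, and the adjusted p became 0.168 for Rps29, 0.0781 for Rps21, 0.296 for Rpl37a and 0.602 for Rpl36a. The count was 3 without dKO_EV replicate 1 (Rpl37a at 0.0528 and Rpl36a at 0.213 no longer passed), 10 without dKO_PRMT1 replicate 1 and 11 without dKO_EV replicate 2.

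**Figure D4:**
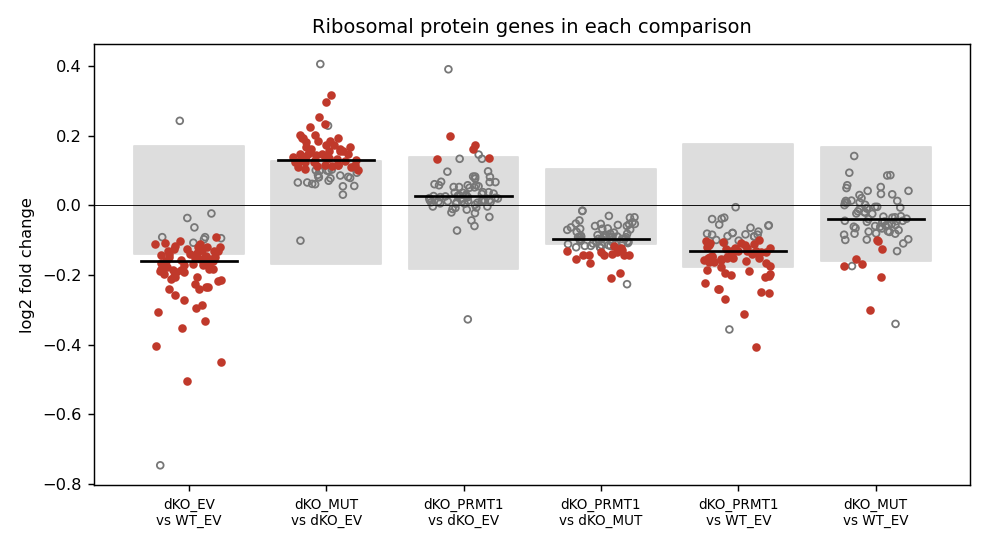
Log2 fold change of each of the 77 genes (points) in 6 comparisons; red points pass an adjusted p of 0.05, open points do not, the black line is the median of the genes and the grey box spans the quartiles of all genes tested. The median lies at -0.16 in dKO_EV vs WT_EV, at 0.13 in dKO_MUT vs dKO_EV and at 0.027 in dKO_PRMT1 vs dKO_EV.

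The difference between the mutant and the wild-type protein was tested directly. In dKO_PRMT1 against dKO_MUT, 16 of 77 genes were lower and 0 higher, where 1.68% of all genes tested were called lower and 1.43% higher. At an unadjusted p under 0.05, 55 were lower and 0 higher, beside 864 lower and 825 higher of the 12744 genes tested. DESeq2 and voom called 21 and 20 members lower and 0 higher. All 77 fold changes were below 0, with a median of -0.096, or -6.44%, against -0.001 over all genes, and both dKO_PRMT1 libraries lay below both dKO_MUT libraries in 65 genes, against 21.8% of all genes. The count depended on single libraries: 0 were called without dKO_PRMT1 replicate 1, 1 without dKO_MUT replicate 2, 6 without dKO_PRMT1 replicate 2 and 10 without dKO_MUT replicate 1. The median stayed between -0.13 and -0.076 in each case. Prmt1 RNA itself was lower in dKO_PRMT1 than in dKO_MUT, so the level of the transgene and its activity cannot be told apart here.

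Rps14 (chr18:60774596-60778546), the small subunit gene of the 5q- syndrome, led this comparison. It was read at 983 and 979 CPM in WT_EV, 897 and 899.5 in dKO_EV, 963 and 1011 in dKO_MUT and 819 and 889.8 in dKO_PRMT1, with both dKO_PRMT1 libraries below every other library and dKO_MUT near WT_EV. Its log2 fold change in dKO_PRMT1 against dKO_MUT was -0.21 ± 0.037 (adjusted p = 0.00029), and the adjusted p was 0.115 without dKO_PRMT1 replicate 1. Against dKO_EV it was -0.072 ± 0.037 (adjusted p = 0.22) in dKO_PRMT1 and 0.14 ± 0.037 (adjusted p = 0.011) in dKO_MUT. Rpl37, a zinc-binding protein of the large subunit, stood at 604 and 556 CPM in WT_EV, 524 and 499 in dKO_EV, 555 and 569 in dKO_MUT and 479 and 503 in dKO_PRMT1, with dKO_PRMT1 replicate 1 lowest. It was lower by 0.20 ± 0.041 on the log2 scale than in dKO_MUT (adjusted p = 0.0028), with an adjusted p of 0.0601 without dKO_MUT replicate 2 and 0.175 without dKO_PRMT1 replicate 1. Rps3, Rps3a1 and Rps15, small subunit proteins, changed by -0.14 ± 0.033, -0.13 ± 0.031 and -0.17 ± 0.04 (adjusted p = 0.01 in each). The others called lower included Rps7, Rps27a, Rpl7a, Rpl13a, Rpl14, Rpl17, Rpl21, Rpl31 and Rpl37a. Rpsa, which rose against dKO_EV with either protein, did not pass here (-0.034 ± 0.03, adjusted p = 0.72).

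Against WT_EV, dKO_PRMT1 remained lower in 55 of the 77 genes and higher in 0, where 12.2% of all genes tested were lower and 11.0% higher. At an unadjusted p under 0.05, 65 were lower and 0 higher, beside 2139 lower and 2019 higher of the 12744 genes tested. DESeq2 and voom called 54 and 57 members lower and 0 higher. The median was -0.13. The count was 26 without dKO_PRMT1 replicate 1 and 35 without WT_EV replicate 1. In dKO_MUT against WT_EV, a comparison added after the data were seen, 8 were lower and 0 higher. Of all genes tested, 9.96% were lower and 9.41% higher. The count of 8 in 77 is close to the share of all genes called lower. At an unadjusted p under 0.05, 17 were lower and 3 higher, beside 1899 lower and 1844 higher of the 12744 genes tested. In this comparison DESeq2 called 8 members lower and 1 higher and voom 13 and 1. Its median was -0.039, and the count of lower genes ran from 3 without WT_EV replicate 2 or dKO_MUT replicate 1 to 13 without either dKO_EV library. The 8 were Rpl38, Rpl39, Rps15a, Rps29, Rpl27, Rps2, Rpl41 and Rps27l, of which Rpl38 (-0.30 ± 0.045, adjusted p = 2.1e-06) and Rpl39 (-0.20 ± 0.043, adjusted p = 0.00041) were called under each of the 16 settings tried. In dKO_PRMT1 against WT_EV, Rpl38 changed by -0.41 ± 0.045 (adjusted p = 4.2e-09) and Rpl39 by -0.31 ± 0.043 (adjusted p = 4e-07). These comparisons share libraries with the ones above, and an intermediate level in dKO_MUT or dKO_PRMT1 is no independent observation.

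The genes of Diamond-Blackfan anaemia and the 5q- syndrome are a subset of the members. All 10 that were tested with at least 5 CPM, among them Rps7, Rps14, Rps19, Rps26, Rpl5 and Rpl11, fell in dKO_EV. So did 67 of the 77 members and 7.00% of all genes tested. Rps19, the gene most often affected in the anaemia, was read at 856 and 861 CPM in WT_EV, 748 and 766 in dKO_EV, 843 and 877 in dKO_MUT and 767 and 819 in dKO_PRMT1, with dKO_EV lowest and dKO_MUT overlapping WT_EV. It changed by -0.18 ± 0.036 (adjusted p = 0.00038) in dKO_EV, and by 0.18 ± 0.036 (adjusted p = 0.00041) in dKO_MUT against dKO_EV. Rps26, which lies near the exit of the messenger RNA, changed by -0.21 ± 0.035 (adjusted p = 2.5e-05) in dKO_EV, from 1108 and 1069 to 922 and 957 CPM. With the mutant 9 of the 10 rose, all but Rpl5 (0.10 ± 0.038, adjusted p = 0.07), beside 52 of the 77 members and 4.24% of all genes tested. With wild-type PRMT1 0 of 10 rose, beside 5 of the 77 members and 5.96% of all genes tested. Against dKO_MUT, Rps14 and Rps7 were lower in dKO_PRMT1, beside 16 of the 77 members and 1.68% of all genes tested. Rpl5 and Rpl11, which with the 5S RNA bind and restrain Mdm2 and so raise p53, changed by -0.16 ± 0.038 and -0.20 ± 0.037 in dKO_EV. Of 14 p53 target genes 5 rose and 1 fell in the same comparison, where 8.44% of all genes tested rose and 7.00% fell. In dKO_MUT against dKO_EV 1 rose and 2 fell, beside 4.24% and 7.08% of all genes. In dKO_PRMT1 against dKO_EV 0 rose and 3 fell, beside 5.96% and 8.67% of all genes.

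Per exonic length in the table, as RPKM (reads scaled to gene length and library total), the highest members by their mean over 8 libraries were Rplp1 at 2381, Rps26 at 2282 and Rps18 at 2171 RPKM. The lowest were Rpl37rt at 7.61, Rps19bp1 at 25.4 and Rps15a at 107 RPKM, the last from its long row. Changes varied with both exonic length and level. Over the 77 members, Spearman's rho between exonic length and the log2 fold change was 0.479 in dKO_EV against WT_EV and -0.379 in dKO_MUT against dKO_EV, where over all 12744 genes tested it was 0.074 and -0.021. Between mean CPM and the log2 fold change, rho over the members was 0.591 and -0.285. The members of 600 bases or less (29) had medians of -0.21 and 0.15 in these comparisons and the 48 longer ones -0.14 and 0.11. Medians of the same sign were found in other short genes: 253 non-member genes of 600 bases or less had medians of -0.14 and 0.096, and the 59 of them at 50 CPM or more -0.13 and 0.097. Non-members of over 600 and up to 2000 bases (3475) had medians of -0.022 and 0.001. In dKO_PRMT1 against dKO_MUT the short members had a median of -0.10, the short non-members -0.092, and the 59 at 50 CPM or more -0.037. The longer members had a median of -0.091 there and the 3475 longer non-members -0.016. The part of transcript length or level in the changes of the members was not tested.

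**Figure D5:**
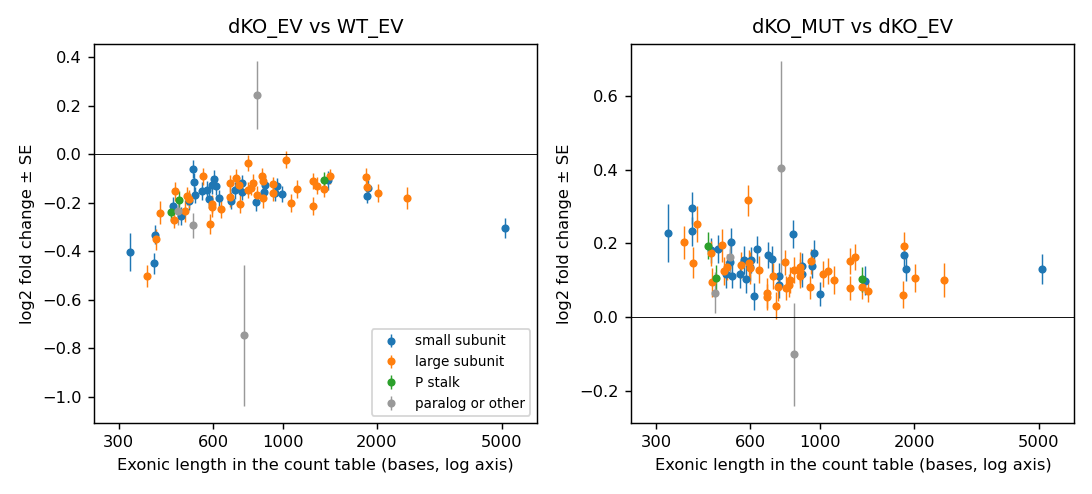
Log2 fold change ± SE of each ribosomal protein gene against its exonic length in bases on a log axis, for dKO_EV vs WT_EV (left) and dKO_MUT vs dKO_EV (right), coloured by class. Apart from the thinly covered Rpl37rt, the largest falls in the left panel (Rpl38, Rps29, Rps28, Rpl39 and Rps21) belong to genes under 600 bases, and the genes over 600 bases lie mostly near their medians of -0.14 and 0.11.

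Some ribosomal protein genes share exons with another row, and their counts are uncertain. Rpl26 was at 0 counts in every library with 95.8% of its exonic bases shared with the row Gm15772. Rpl30 (0.934 CPM), Rps27 (1.30 CPM) and Rpl34 (4.33 CPM) fell under the minimum with 76.0%, 60.0% and 59.9% of their bases shared. The paralogs Rpl10l and Rps27rt were at 0 counts in all libraries, and Rpl3l and Rpl39l had means of 0.395 and 0.0427 CPM. Among members, Rpl5 shares 47.7% of its exonic bases with Fam69a, Rpl31 33.1% with Tbc1d8, Rps25 29.4% with Ccdc84, Rps27a 11.1% with Clhc1 and Rpl32 8.33% with Cand2. The strand setting of the counting is not stated, so reads of these pairs cannot be told apart.

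Other genes of ribosome production were read from lists. Over all genes tested, 7.00% fell and 8.44% rose in dKO_EV against WT_EV. In dKO_MUT against dKO_EV 4.24% rose and 7.08% fell, and in dKO_PRMT1 against dKO_EV 5.96% rose and 8.67% fell. Of 7 ribosomal protein or related genes outside the naming rule, Gnb2l1 (Rack1), a scaffold on the small subunit, fell in dKO_EV at -0.16 ± 0.032 (adjusted p = 0.00051), while Fau, which encodes a ribosomal protein fused to a ubiquitin-like protein, did not pass, at -0.078 ± 0.039 (adjusted p = 0.2). Of 20 translation factors and other genes with TOP starts, 11 fell and 0 rose in dKO_EV; 2 rose and 1, Vim, fell in dKO_MUT against dKO_EV, and likewise 2 and 1 in dKO_PRMT1. Eef1a1, which carries aminoacyl-tRNA to the ribosome, was read at 9720 and 10100 CPM in WT_EV and 8600 and 8990 in dKO_EV, and fell by 0.17 ± 0.027 (adjusted p = 1.1e-05). Eef1g, a subunit of its exchange factor, changed by -0.23 ± 0.038 (adjusted p = 2.1e-05). Of 26 nucleolar genes 11 fell and 1 rose in dKO_EV. Those that fell include Nop10 (-0.43 ± 0.076, adjusted p = 6.6e-05) and Nop56 (-0.24 ± 0.049, adjusted p = 0.00063), which encode proteins of particles that modify RNA. In dKO_MUT against dKO_EV only Nop10 of these rose (0.27 ± 0.076, adjusted p = 0.014), and in dKO_PRMT1 0 of 26 were called. Of 31 genes of subunit assembly and protein import 8 fell and 1 rose in dKO_EV, such as Gnl3 (-0.31 ± 0.066, adjusted p = 0.00076), and 0 were called in either comparison of a PRMT1 vector with dKO_EV. Of 23 genes of mTORC1 and the S6 kinases 3 fell in dKO_EV (Eif4e, Larp4 and Pdcd4), and 1, the kinase Rps6ka1, rose with the mutant (0.16 ± 0.04, adjusted p = 0.005) and with wild-type PRMT1 (0.29 ± 0.04, adjusted p = 8.3e-07). A count of 1 in 23 is close to the share of all genes tested that rose in these comparisons. The medians in dKO_EV against WT_EV were -0.13 for the TOP factors, -0.17 for the nucleolar genes, -0.11 for assembly and 0.0070 for mTORC1, beside -0.16 for the ribosomal protein genes and -0.001 for all genes tested. The medians in dKO_MUT against dKO_EV were 0.044 for the TOP factors, 0.022 for the nucleolar genes, 0.011 for assembly and 0.035 for mTORC1, beside 0.13 for the ribosomal protein genes and 0.002 for all genes tested.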

How the data were processed

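RNA was measured in 8 libraries, 4 groups of 2 taken from the sample titles. The authors deposited 1 table of raw counts per gene with an exonic gene length. Per the submitters' processing notes, Trim Galore 0.6.6, STAR 2.7.6a and featureCounts were used with GRCm38. The sources used here give neither strand setting, annotation nor the handling of multi-mapping reads. Per the labels' protocols, libraries came from a directional kit.

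Counts were fitted in R 4.3.3 with edgeR 4.0.16 (TMM scaling, filterByExpr, robust quasi-likelihood, group as the only term, all 8 libraries, 4 residual degrees of freedom), with Benjamini-Hochberg adjustment over 12744 genes at 0.05. The F statistic gave the standard errors, and TMM-scaled totals the CPM. DESeq2 1.42.0, limma 3.58.1 voom, other scalings, filters, a replicate block and left-out libraries were alternatives. The steps were tested on simulated data. Members and gene lists were chosen with earlier results of these data known. Named genes were called members, up to 6 per direction with the smallest adjusted p, and the 3 highest and lowest by RPKM. Also named were the paralogs, the Diamond-Blackfan and 5q genes, Rps6, Rpsa, Rplp0 and, per other list, up to 3 called genes. Rps28, Rps12, Rpl13a, Fau, the markers Lyz2 and Tfrc and the genes in counts of 5 or fewer were named after their values were seen. A few genes are counted but not reported here by name.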

Additional observations from a re-analysis of the deposited data

How the results depend on the processing

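No member call changed sign under any setting tried. Of 156 alternative values other than those with a library left out, 146 stayed close to the main value. For a count, close meant within a set ratio of the main count. For a median, it meant a shift smaller than the SD between replicates. The exceptions were counts. In dKO_PRMT1 against dKO_EV 8 members were higher with no filter on counts. In dKO_PRMT1 against dKO_MUT 27 were lower when only these groups were fitted and 2 at an adjusted p of 0.01. In dKO_MUT against dKO_EV 31 were higher at 0.01. In dKO_MUT against WT_EV 1 member was higher with no filter, a replicate block, DESeq2 or voom, and 13 were lower with voom and 4 at 0.01; the causes were not tested. Leaving out each library in turn gave 48 to 69 lower in dKO_EV against WT_EV (median -0.19 to -0.14), 1 to 11 higher in dKO_PRMT1 against dKO_EV (0.0060 to 0.061), 24 to 58 higher in dKO_MUT against dKO_EV (0.11 to 0.17), 0 to 24 lower in dKO_PRMT1 against dKO_MUT (-0.13 to -0.076), 26 to 62 lower in dKO_PRMT1 against WT_EV (-0.16 to -0.11), and 0 to 2 higher and 3 to 13 lower in dKO_MUT against WT_EV. A group left with 1 library is assumed to vary like the others.

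Calls kept under all 16 settings were 39 of 67, 1 of 5, 21 of 52, 0 of 16 and 19 of 55 in the 5 planned comparisons, in the order dKO_EV vs WT_EV, dKO_PRMT1 vs dKO_EV, dKO_MUT vs dKO_EV, dKO_PRMT1 vs dKO_MUT and dKO_PRMT1 vs WT_EV. The replicate numbers gave no sign of pairing the samples (correlations of deviations -0.032 to -0.002), though such correlations cannot exclude a pairing. With the replicate block the counts were 71 lower, 6 higher, 56 higher, 19 lower and 57 lower. Reading the name rule so that Rpl3 to Rpl9 drop out leaves 70 members and 61 lower, 5 higher, 51 higher, 16 lower and 51 lower. Under the other scalings the median of all genes stayed within 0.007 of 0. A member that was not called may still differ.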
